A study of Mus musculus with 8 samples.

Results

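The immediate early genes described here are the AP-1 genes Fos, Fosb, Jun, Junb, Jund and Atf3, the early growth response genes Egr1, Egr2 and Egr3, and the nuclear receptor gene Nr4a1. They were chosen by symbol, with the values of these same libraries known, and make up 10 of the 22744 genes in the expression table. RNA came from whole testes of C57BL/6 mice at postnatal day 8, with 3 wild-type and 3 Dmrt6 null libraries that the design text calls biological replicates. Dmrt6, listed in the table as Dmrtb1, encodes a DNA-binding protein of male germ cells. A separate chromatin immunoprecipitation (ChIP) library with a rabbit antibody to DMRT6, and its input library, came from wild-type adult testis of a C57BL/6 and mixed background. How the null allele was made, and whether a library holds 1 animal or several, is not given in the sources used here, so p-values measure the spread between these libraries.

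The FOS and JUN families are leucine zipper proteins that pair to form the AP-1 transcription factor, and ATF3 is a related, stress-induced zipper protein. EGR proteins are zinc finger factors, and NR4A1 (NUR77) is an orphan nuclear receptor. Most of their genes are switched on within minutes by growth factors, cyclic AMP or stress, without new protein synthesis, and have short-lived messenger RNAs. In the testis NR4A1 is best known in Leydig cells, where luteinizing hormone acts through cyclic AMP to raise it and where it acts on genes of steroid synthesis.

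The genes had short spans in the table. Their median there was 4273 bp, from 1807 bp for Junb to 13045 bp for Atf3, against 19046 bp over the 16634 genes tested for expression. For Nr4a1 the table gives 7947 bp, whereas RefSeq gives 20894 bp in GRCm38.p6. RefSeq promoter windows (GRCm38.p6, 250 bases before to 50 after a start) matched 8 of the 10 by symbol. Egr1 and Egr3 had no window, and Egr2 had 5 windows. Windows are shown for the 3 genes whose genotypes did not overlap (Fos, Junb and Nr4a1), and for Egr2 and Jun, whose genotypes did. Capitals mark the cyclic AMP response element half-site TGACG, or CGTCA for the same site on the other strand. The windows are chr12:85473640-85473939 on the plus strand for Fos, chr8:84978699-84978998 on the minus strand for Junb, chr15:101266596-101266895 on the plus strand for Nr4a1, chr10:67537619-67537918 on the plus strand for Egr2 (the middle one of its 5) and chr4:95052173-95052472 on the minus strand for Jun, each written 5′ to 3′ on the strand of the gene.
Fos: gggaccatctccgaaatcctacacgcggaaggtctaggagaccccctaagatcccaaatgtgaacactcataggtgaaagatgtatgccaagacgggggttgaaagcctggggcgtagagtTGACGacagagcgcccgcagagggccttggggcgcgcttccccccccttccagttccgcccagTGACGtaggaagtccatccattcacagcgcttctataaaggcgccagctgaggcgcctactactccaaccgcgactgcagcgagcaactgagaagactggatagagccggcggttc
Junb: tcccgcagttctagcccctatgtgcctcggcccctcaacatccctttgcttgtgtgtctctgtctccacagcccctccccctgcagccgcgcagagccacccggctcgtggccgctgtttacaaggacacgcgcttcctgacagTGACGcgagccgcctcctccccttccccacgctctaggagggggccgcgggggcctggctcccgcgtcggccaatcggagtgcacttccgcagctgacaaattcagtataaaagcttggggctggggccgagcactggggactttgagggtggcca
Nr4a1: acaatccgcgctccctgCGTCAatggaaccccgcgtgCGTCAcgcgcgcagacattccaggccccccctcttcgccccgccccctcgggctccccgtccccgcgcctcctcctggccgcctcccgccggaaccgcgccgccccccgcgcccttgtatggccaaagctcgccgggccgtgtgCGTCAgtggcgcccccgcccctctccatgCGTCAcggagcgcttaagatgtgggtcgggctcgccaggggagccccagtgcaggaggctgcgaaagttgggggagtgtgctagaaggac
Egr2: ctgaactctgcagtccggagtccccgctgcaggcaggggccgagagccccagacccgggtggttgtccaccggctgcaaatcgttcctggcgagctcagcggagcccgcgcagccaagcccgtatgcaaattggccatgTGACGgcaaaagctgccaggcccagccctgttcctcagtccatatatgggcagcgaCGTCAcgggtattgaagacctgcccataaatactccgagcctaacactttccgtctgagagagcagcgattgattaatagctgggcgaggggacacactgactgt
Jun: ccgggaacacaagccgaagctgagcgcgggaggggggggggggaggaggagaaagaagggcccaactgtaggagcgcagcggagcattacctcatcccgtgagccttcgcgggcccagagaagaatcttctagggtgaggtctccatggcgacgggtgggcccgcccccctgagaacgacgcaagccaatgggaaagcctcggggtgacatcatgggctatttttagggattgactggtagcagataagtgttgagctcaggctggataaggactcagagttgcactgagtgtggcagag

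The half-site lay in at least 1 window of 6 of 8 genes (Fos, Fosb, Junb, Egr2, Nr4a1 and Atf3), and in 20.8% of all 32851 windows. The count is by gene and the share by window, and Egr2 had 5 windows. Its windows 3, 4 and 5 start at 67537619, 67537620 and 67537680, so they overlap and hold the same 2 half-sites. Windows 1 and 2 of Egr2 held 0. The median over the 8 genes was 20.5 CpG per window (the middle window for Egr2), against 7 over all windows, with Jund an exception at 3 CpG, and the half-site holds a CpG itself. Among the 11378 windows with at least 15 CpG, 35.0% held it. Nr4a1 had 4 half-sites, beginning 233, 213, 69 and 40 bases before the start, a number reached or passed by 0.231% of all windows and 0.650% of those rich in CpG. Fos had 2, at 129 and 66 bases, Junb 1 at 106 bases, and Egr2 2 in the window shown, at 111 and 55 bases. Both strands were also searched for other motifs. The full element TGACGTCA, which contains the half-site, the AP-1 site TGANTCA and the core ACANTGT of the DMRT1 binding motif were in none of the 8 genes' windows, and in 1.79%, 7.81% and 7.54% of all windows. The serum response factor's CArG box was found in Egr2 alone (1.63% of all windows), the EGR site GCGNGGGCG in Fosb and Nr4a1 (5.55%) and the TATA box TATAAA in Fos and Junb (13.6%). A match is a description of these letters and not of a bound site. Sequence outside the windows, and that of Egr1 and Egr3, was not searched, so a motif absent here may lie elsewhere near the gene.

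Expression values are log2 CPM as deposited, where CPM is the read count scaled to the size of the library. Whole reads could be recovered from them, and the table held 23768316 to 29046494 reads per library. Values are not scaled to transcript length, so levels were not compared between genes. Values of a gene are listed for replicates 1, 2 and 3 in that order, wild type before null. Dmrtb1, the targeted gene, had 194, 510 and 254 reads against 14, 25 and 26, and its difference of -3.78 (SE 0.36) had an adjusted p of 0.0516 in limma. Markers fitting the labelled tissue were present in every library: none of the 12 spermatogonial, 11 Sertoli and 6 Leydig cell genes listed had 0 reads in any. Null replicate 3 stood apart, at 54.3 on the first principal component (44.8% of the variance), with the other libraries between -20.2 and 1.68. Differences are null minus wild type in log2 CPM with the standard error (SE) of limma, fitted over all tested genes, and a gene is called at a Benjamini-Hochberg adjusted p below 0.05.

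Of the 10 genes, 8 were tested, having a mean over all libraries of 0 or more, and Fosb and Egr3 were too low. In limma 0 of the 8 were called, with adjusted p from 0.755 to 0.776, where 0.00601% of tested genes were called (1 gene). Before adjustment p was below 0.05 for 2 of 8, Junb and Nr4a1, against 3.47% of tested genes, and limma's voom on the recovered reads also called 0. The difference was positive for 6 of 8 and for 51.7% of tested genes. Its median was 0.41 over the 8 genes and 0.01 over all tested genes. The median was 0.12 without null replicate 3, when 4 of 8 differences were positive, and 0.23 without wild-type replicate 3. The genes were proposed with this contrast in view, so these counts are a description.

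**Figure D1:**
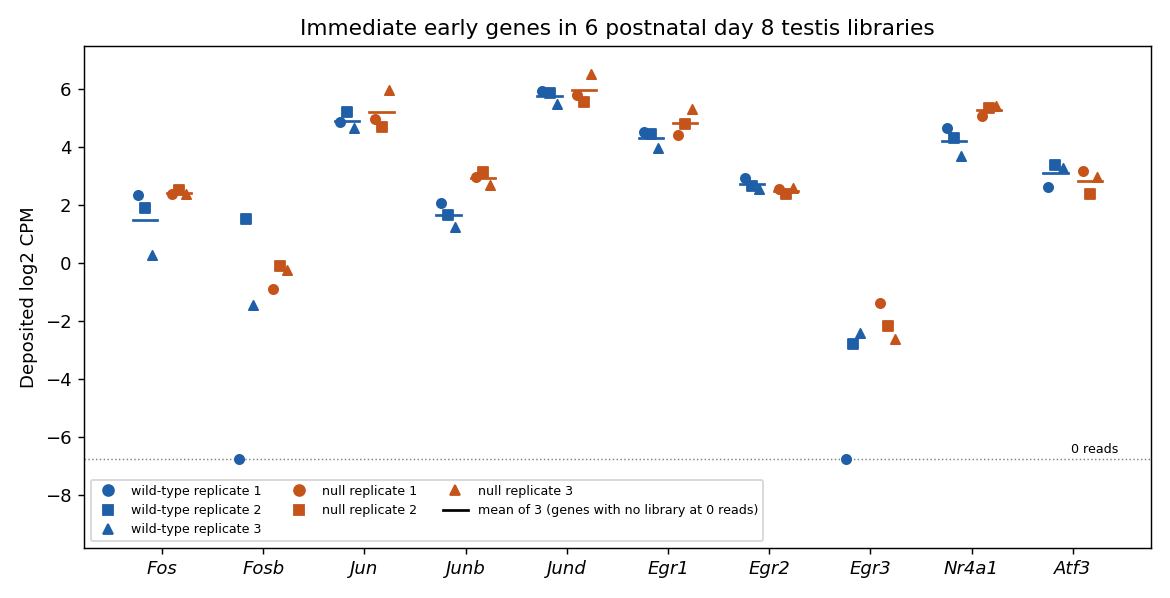
Deposited log2 CPM (vertical axis) of the 10 genes in 3 wild-type (blue) and 3 null (orange) postnatal day 8 testis libraries, with marker shapes for the replicate number, short bars for the mean of 3, and a dotted line at the value given to 0 reads. The 3 null points of Junb and Nr4a1 lie above all wild-type points, and wild-type replicate 1 has 0 reads for Fosb and Egr3.

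Fos (ENSMUSG00000021250, chromosome 12, 86814840 to 86818223, plus strand, mm9), the founding gene of its family, had log2 CPM of 2.35, 1.91 and 0.28 in wild type against 2.39, 2.52 and 2.38 in null. The corresponding reads were 121, 110 and 33 against 138, 158 and 134. Wild-type replicate 3 was far below the other 5 libraries. The genotypes did not overlap, by a gap of only 0.03 between wild-type replicate 1 and the lowest null library. Wild-type libraries averaged 1.51 ± 1.09 and null libraries 2.43 ± 0.08 (mean ± SD, n = 3 each). The difference of 0.92 (SE 0.48, adjusted p = 0.755 in limma) was 0.30 without wild-type replicate 3. The residual spread of Fos was among the widest, with 1.45% of tested genes wider.

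Fosb (ENSMUSG00000003545, chromosome 7, 19888070 to 19895394, minus strand), a close relative of Fos induced by the same stimuli, was not tested, its mean log2 CPM being below 0 with the value of -6.74 that the table gives to 0 reads. It had 0, 84 and 10 reads in wild type against 14, 26 and 22 in null. The highest and the lowest library were thus both wild type, and the null libraries lay between them. A count of 0 in wild-type replicate 1 allows up to 3 reads, or 0.126 CPM, and covers counting error only.

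Jun (ENSMUSG00000052684, chromosome 4, 94715725 to 94718913, minus strand), the main partner of FOS, had log2 CPM of 4.89, 5.22 and 4.67 in wild type against 4.97, 4.69 and 5.99 in null. Only null replicate 3 exceeded all wild-type libraries. The difference was 0.29 (SE 0.32) with all libraries and -0.10 without null replicate 3.

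Jund (ENSMUSG00000071076, chromosome 8, 73221638 to 73224515, plus strand), the JUN family gene usually described as constitutive, followed Jun: 5.94, 5.86 and 5.49 log2 CPM in wild type against 5.82, 5.57 and 6.54 in null. Null replicate 3 was again the highest library. Its difference was 0.21 (SE 0.24) with all libraries and -0.07 without null replicate 3.

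Junb (ENSMUSG00000052837, chromosome 8, 87500811 to 87502617, minus strand), which encodes a JUN protein that can hold back JUN's activity, had the largest difference of the 8 genes. Junb stood at 2.10, 1.66 and 1.27 log2 CPM in wild type against 2.99, 3.16 and 2.71 in null, from 102, 92 and 66 against 208, 246 and 168 reads. The lowest null library was 0.61 above the highest wild-type library. Wild-type libraries averaged 1.68 ± 0.42 and null libraries 2.95 ± 0.23 (mean ± SD, n = 3 each). The difference of 1.27 (SE 0.25, adjusted p = 0.755 in limma) corresponds to a level 2.42 times wild type, and leaving out 1 library at a time gave 1.07 to 1.49.

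Atf3 (ENSMUSG00000026628, chromosome 1, 192994175 to 193007219, minus strand) had log2 CPM of 2.63, 3.38 and 3.30 in wild type against 3.20, 2.40 and 2.97 in null. The genotypes overlapped, with null replicate 2 the lowest library and wild-type replicate 2 the highest. The difference was -0.25 (SE 0.28), and was -0.02 without null replicate 2 and -0.49 without wild-type replicate 1.

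Among the EGR genes, Egr1 (ENSMUSG00000038418, chromosome 18, 35019477 to 35024638, plus strand), whose product is a serum-induced zinc finger activator, had log2 CPM of 4.52, 4.47 and 3.97 in wild type against 4.44, 4.81 and 5.32 in null. Null replicate 1 lay just below wild-type replicates 1 and 2, and null replicates 2 and 3 above all wild-type libraries. The difference was 0.54 (SE 0.24, adjusted p = 0.755 in limma), and 0.30 without null replicate 3.

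Egr2 (KROX20, ENSMUSG00000037868, chromosome 10, 66998223 to 67004936, plus strand), best known for its part in myelination and hindbrain patterning, varied little between libraries: 2.93, 2.67 and 2.58 log2 CPM in wild type against 2.55, 2.39 and 2.60 in null. Its difference was -0.22 (SE 0.18), and was -0.11 without wild-type replicate 1. The genotypes overlapped through null replicate 3. Egr3 (ENSMUSG00000033730, chromosome 14, 70477252 to 70479964, plus strand), a relative of Egr1, had 0, 4 and 5 reads in wild type against 10, 6 and 4 in null, too few to compare.

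Nr4a1 (ENSMUSG00000023034, chromosome 15, 101097277 to 101105223, plus strand) had log2 CPM of 4.67, 4.34 and 3.69 in wild type against 5.08, 5.35 and 5.41 in null. All 3 null libraries were above all 3 wild-type libraries, by a gap of 0.41. The reads were 606, 591 and 355 against 890, 1126 and 1098. Wild-type libraries averaged 4.23 ± 0.50 and null libraries 5.28 ± 0.18 (mean ± SD, n = 3 each). The difference of 1.05 (SE 0.24, adjusted p = 0.755 in limma) is a level 2.07 times wild type, and ranged from 0.78 to 1.27 with 1 library left out.

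Fos, Junb and Nr4a1 were thus the genes whose null libraries all lay above the wild-type libraries, 3 of 8, against 5.06% of tested genes. None of the 8 lay wholly below, against 6.02% of tested genes. Junb and Nr4a1 were called in 1 alternative, where libraries were weighted by their estimated spread, although the weights did not converge. Their differences there were 1.34 and 0.86, with limma adjusted p of 0.00992 and 0.0429, and in the other alternatives the adjusted p was at least 0.324 for both. The weighted fit called 136 of the 16634 tested genes, against 1 in the main fit. It gave null replicate 1 a weight of 19.3, against 0.153 to 1.46 for the other libraries. The non-overlap counts rest on the values that led to the choice of the genes.

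**Figure D2:**
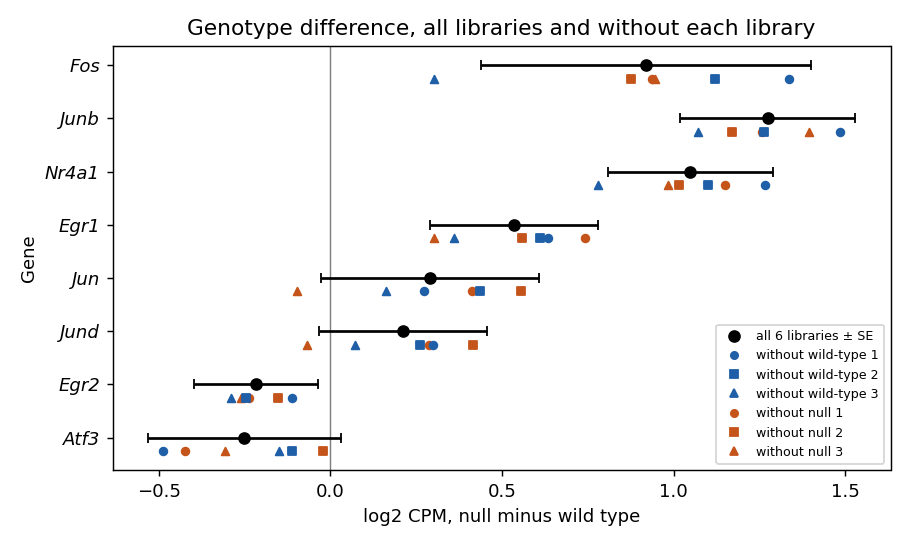
Difference in log2 CPM, null minus wild type (horizontal axis), for the 8 tested genes: black points with bars are the estimate with all 6 libraries ± SE, and coloured points the estimates with 1 library left out. Junb and Nr4a1 stay between 0.78 and 1.49 in every case, Fos is at 0.30 without wild-type replicate 3, and Jun and Jund turn negative without null replicate 3.

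The library that was lowest or highest was often the same one. Wild-type replicate 3 was the lowest of the 6 libraries for 6 of the 8 genes (Fos, Jun, Junb, Jund, Egr1 and Nr4a1) and for 19.5% of all tested genes. Null replicate 3 was the highest for 4 (Jun, Jund, Egr1 and Nr4a1) and for 34.5% of all tested genes. Null replicate 2 was the highest for Fos and Junb and the lowest for Egr2 and Atf3. Averaged over the 8 genes, each centred on its mean over the 6 libraries, the log2 CPM was -0.02, -0.08 and -0.61 in wild type against 0.16, 0.09 and 0.47 in null.

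**Figure D3:**
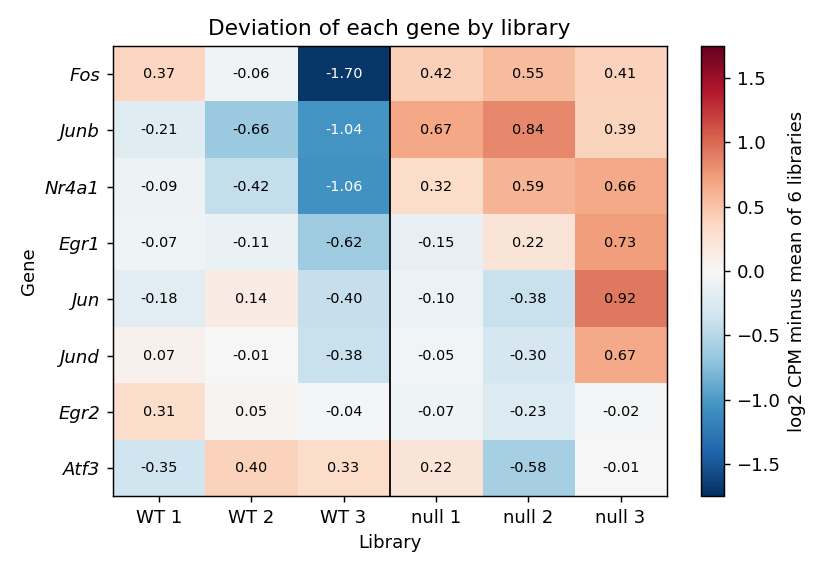
Log2 CPM of each tested gene minus its mean over the 6 libraries (colour and printed value), by library, with wild type left of the line. Fos, Junb and Nr4a1 are low in wild-type replicate 3 (-1.70, -1.04 and -1.06), whereas Jun and Jund are high in null replicate 3 (0.92 and 0.67).

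Across the 6 libraries the genes fell into different patterns, described here by Pearson's r over 6 points that share genotype and library, with no test. Over all 6 libraries r was 0.81 for Fos and Junb, 0.89 for Fos and Nr4a1 and 0.94 for Junb and Nr4a1. These 3 genes were grouped because their null libraries all lay above wild type, and that shared gap by itself raises r. After each genotype was centred on its own mean, r was 0.85, 0.94 and 0.76, with wild-type replicate 3 the lowest library for all 3 genes. Among the null libraries alone, replicate 3 was the lowest for Junb (2.71) and the highest for Nr4a1 (5.41). Jun and Jund formed another pair, with r = 0.95 and, without null replicate 3, r = 0.78. Jun and Junb had r = 0.18. Egr1 followed Nr4a1 (r = 0.86) and Jund (r = 0.79), but r with Jund was 0.32 without null replicate 3. Atf3 ran against Nr4a1 (r = -0.59). Egr2 had r between -0.45 (Junb) and 0.29 (Jund) with the other 7 genes, but with each genotype centred on its own mean r was 0.70 with Nr4a1, 0.69 with Jund and 0.67 with Fos.

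The genes most like the average of the 8 over the 6 libraries, among 3010 others with a mean of 2 or more in log2 CPM and an SD of 0.3 or more, were Efnb2 (r = 0.99), which encodes an ephrin ligand, Inadl (r = 0.99), a cell polarity gene, Ppt2 (r = 0.99), which encodes a lysosomal thioesterase, Ctu1 (r = 0.99), a tRNA thiolation gene, and A330049M08Rik (r = 0.98). Of those 3010 genes 16.5% had r above 0.8, so likeness over so few libraries is common.

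Other immediate early genes were then examined. Of 50 listed, 49 were in the table and tested, and 0 passed in limma or voom. The difference was positive for 36 and negative for 13, with a median of 0.14. Before adjustment p was below 0.05 for 3 higher and 2 lower in null (10.2% in all, against 3.47% of tested genes). Of the 49 genes 3 lay wholly above wild type, against 5.06% of tested genes, and 2 wholly below, against 6.02%. Sik1, a kinase gene induced by cyclic AMP, differed by 0.78 (SE 0.25), from 514, 574 and 422 to 661, 764 and 1227 reads. The antiproliferative gene Btg2 differed by 0.29 (SE 0.10) and the stress gene Gadd45b by 0.47 (SE 0.17), both, like Sik1, without overlap between genotypes. Id3, which encodes an inhibitor of helix-loop-helix factors, differed by -0.35 (SE 0.12), also without overlap. Of the 49 genes 15 had r above 0.8 with the average of the 8 genes, or 30.6%, against 7.78% of all tested genes.

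Close relatives were counted next. Of 7 other EGR and NR4A factors and partners, 6 had a positive difference (median 0.34) and 0 passed in limma or voom. Against 3.47% of tested genes, the unadjusted p was below 0.05 for 1 of the 7. That gene, Nr4a2, another receptor, had 63, 61 and 41 against 77, 94 and 97 reads, with no overlap, and differed by 0.73 (SE 0.27). Nab2, a co-repressor of EGR proteins, differed by 0.38 (SE 0.20), Egr4 by 0.58 (SE 0.48) and Wt1, a zinc finger gene of Sertoli cells, by 0.22 (SE 0.21). Egr4 was highest in null replicate 3 (694 reads) and lowest in wild-type replicate 3 (151 reads). Of 23 tested bZIP factors outside the 10 genes, 15 had a positive difference, with a median of 0.08, and 0 passed in limma (0 also at an unadjusted p below 0.05) or voom. Among them Cebpb differed by 0.55 (SE 0.27), Mafg by 0.44 (SE 0.23), Fosl2, a FOS relative, by 0.36 (SE 0.20) and Ddit3 by -0.29 (SE 0.17).

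Kinases and promoter-binding factors that act upstream had a median difference of 0.10, positive for 26 of 37. None of the 37 passed in limma or voom, and 1 (2.70%, against 3.47% of tested genes) had an unadjusted p below 0.05. This was Map2k3, a kinase gene of the p38 pathway, at 0.61 (SE 0.26). Mapk14, which encodes p38 itself, differed by 0.32 (SE 0.15), Mef2d by 0.54 (SE 0.26) and Mkl1, a partner gene of serum response factor, by 0.56 (SE 0.29). The average of this list was highest in null replicate 3, at 0.30, against -0.12 to 0.01 in the other 5 libraries.

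A list of known AP-1 or NR4A1 target genes lay the other way. Of its 16 tested genes 13 had a negative difference, with a median of -0.23, and 0 passed in limma or voom. The unadjusted p was below 0.05 for 2 (12.5%, against 3.47% of tested genes). Hsd3b1, a steroid dehydrogenase gene of Leydig cells, differed by -0.38 (SE 0.12), Timp1, a protease inhibitor gene, by -0.54 (SE 0.19), Vim by -0.27 (SE 0.12) and the Leydig hormone gene Insl3 by -0.53 (SE 0.24). The NR4A1 targets of steroid synthesis differed in sign: Star was at 0.36 (SE 0.46), Cyp17a1 at 0.61 (SE 0.43) and Cyp11a1 at -0.19 (SE 0.30). Both Star and Cyp17a1 varied widely within wild type, with 1009, 3939 and 1081 reads for Star. Hsd3b1, Insl3, Star, Cyp17a1 and Cyp11a1 are also in the list of Leydig cell genes below, so the 2 lists are not separate observations. A change in cell makeup and a change in target genes cannot be told apart here.

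Genes of heat shock and other stress responses were examined next, since stress is among the stimuli that raise immediate early genes. Of 18 tested, 10 had a positive difference, with a median of 0.05. None passed in limma or voom, and 3 had an unadjusted p below 0.05: Sesn2 at 1.08 (SE 0.34), Ddit4 at 0.54 (SE 0.18) and the chaperone gene Hsph1 at 0.39 (SE 0.15), each with no overlap between genotypes. Over all tested genes 3.47% had such a p, and 5.06% lay wholly above wild type. Hspa1a, an inducible heat shock gene with a near-identical copy whose reads cannot be told apart with certainty, differed by 0.61 (SE 0.34) and was lowest in wild-type replicate 3 (450 reads) and highest in null replicate 3 (1556 reads), which on the log2 CPM scale were also the lowest and highest libraries for Egr1 and Nr4a1. Of 12 hypoxia genes 6 had a positive difference (median -0.02) and 0 passed in limma or voom, with 0 at an unadjusted p below 0.05. Among them Ndrg1 differed by 0.29 (SE 0.15), Adm by 0.47 (SE 0.28), Ldha by -0.17 (SE 0.13) and Slc2a1 by 0.15 (SE 0.14). The part of stress in the differences of the immediate early genes was not tested.

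**Figure D4:**
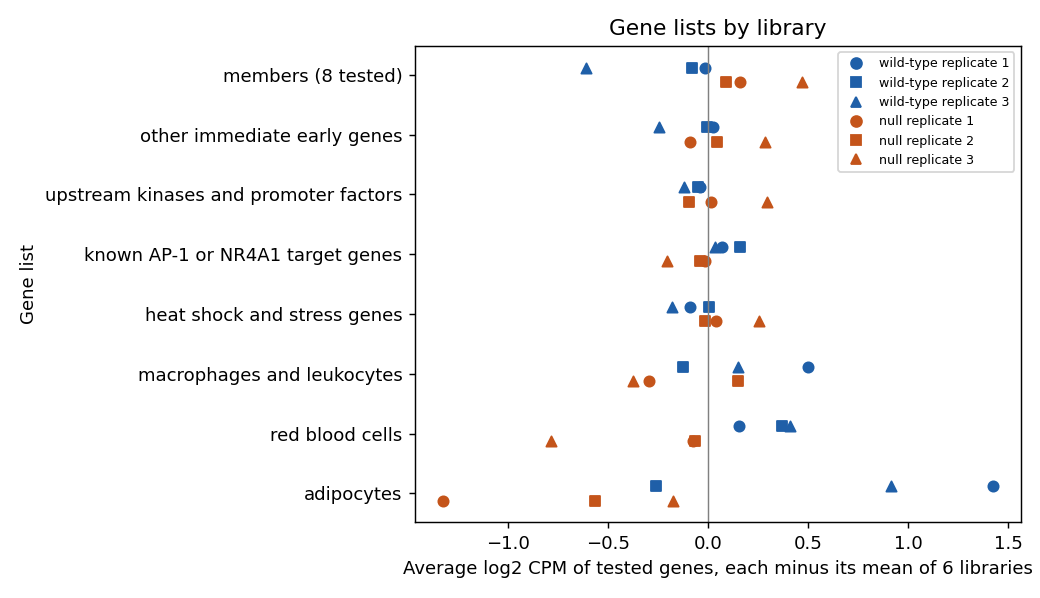
Average log2 CPM of the tested genes of 8 gene lists (members are the immediate early genes described here), each gene minus its mean over the 6 libraries (horizontal axis), with wild-type libraries in blue, null libraries in orange and marker shapes for replicate numbers. The 8 tested genes run from -0.61 in wild-type replicate 3 to 0.47 in null replicate 3, and red blood cell genes lie lower in the null libraries.

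In whole testis RNA, fewer cells of a type and less RNA per cell cannot be told apart. Marker lists of other cell types differed in sign and level between the genotypes. Over all tested genes 3.47% had an unadjusted p below 0.05. All 5 tested adipocyte genes were lower in null (median -1.71, 4 at an unadjusted p below 0.05), and 1 of the 5 lay wholly below wild type, against 6.02% of tested genes. The summed level was 186 to 353 CPM in wild type and 163 to 184 CPM in null, and Lpl made up most of it. Averaged over the 5 genes, each centred on its mean, log2 CPM was 1.42, -0.26 and 0.91 in wild type against -1.33, -0.57 and -0.18 in null, so the genotypes overlapped. Cfd of this list, which had 0 reads in at least 1 library, was not tested. All 10 macrophage and leukocyte genes were lower (median -0.33, 2 at an unadjusted p below 0.05), with 169 to 278 CPM in wild type and 147 to 208 CPM in null. All 5 red blood cell genes were lower (median -0.66, 4 at an unadjusted p below 0.05), with 1477 to 1776 CPM against 717 to 1255 CPM, and 4 of 5 lay wholly below wild type, against 6.02% of tested genes. The median difference was 0.07 for 12 spermatogonial genes (Dmrtb1 among them), 0.12 for 11 Sertoli and -0.28 for 6 Leydig genes, most of these also among the AP-1 or NR4A1 targets. It was -0.04 for 9 peritubular and stromal and -0.28 for 7 endothelial genes. Of the 12 spermatogonial genes 3 had all null libraries above wild type, against 5.06% of tested genes: Sohlh1 at 0.40 (SE 0.14) and Sohlh2 at 0.28 (SE 0.10), transcription factor genes of differentiating spermatogonia, and Kit, their receptor tyrosine kinase gene, at 0.35 (SE 0.13). Each had an unadjusted p below 0.05, and their r with the average of the 8 immediate early genes was 0.89, 0.71 and 0.91. In the rest of this list r was 0.80 for Uchl1, 0.76 for Zbtb16, 0.25 for Stra8 and 0.20 for Dnd1. It was 0.08 for Mael, 0.07 for Gfra1, 0.03 for Dazl, 0.02 for Ddx4 and -0.66 for Dmrtb1. Of all tested genes 7.78% had r above 0.8. The summed level of the spermatogonial list was 1553 to 1731 CPM in wild type and 1656 to 1803 CPM in null. Apart from Cfd, no gene of these 8 lists had 0 reads in any library. No gene of the lists passed in limma or voom, and their part in the differences of the immediate early genes was not tested.

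DMRT6 peaks came from a list of 14862 peaks, called by the authors on the 1 ChIP library with the 1 input library in adult testis, so stage and tissue makeup differ from the RNA. The score of a peak is the authors' own value, with a median of 94.7 over the list. Distances run from the middle of a peak to the 5′ end of the gene in the table (mm9). A peak lay within 10 kb for 5 of the 10 genes (Jun, Jund, Egr1, Egr3 and Nr4a1), where 27.9% of all genes in the table had one. For the 8 tested genes it was 4 against 31.2% of tested genes. Within 1 kb it was 2 of 10 (Egr1 and Egr3) against 12.9%, and within 50 kb 9 of 10 against 61.7%. Of the 8 tested genes 7 had a peak within 50 kb, where 64.2% of tested genes did, and Egr2 was the exception. The median distance to the nearest peak was 8.67 kb for the 10 genes and 30.8 kb for all genes. With 1 peak list there is no replicate check on any of these.

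Jund had the peak of highest score among the 10 genes. On chromosome 8 a peak from 73215814 to 73216271 lay 5.60 kb upstream of its 5′ end with a score of 642, higher than 98.4% of peaks, and another from 73222547 to 73222870 lay 1.07 kb inside the gene with a score of 266. A further 4 peaks lay 33.0 to 43.8 kb downstream, all within the neighbouring gene Pde4c. Jun had 1 peak within 100 kb, on chromosome 4 from 94720619 to 94720784, 1.79 kb upstream with a score of 98.8 and inside the transcript BC042782.

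Egr1 had a peak across its 5′ end, on chromosome 18 from 35019377 to 35019612, with a score of 104 (higher than 56.0% of peaks), and another 11.5 kb downstream with a score of 87.8. Egr3, with 10 reads or fewer in each RNA library, had a single peak within 100 kb, 0.997 kb upstream on chromosome 14 (70476183 to 70476328) with a score of 81.2. Egr2 had none within 50 kb, and its nearest lay 74.6 kb upstream.

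Of the 3 genes with no overlap between genotypes, only Nr4a1 had a peak within 10 kb. It lay 7.25 kb upstream on chromosome 15 (101089949 to 101090101) with a score of 70.4, higher than 19.7% of peaks. The table gives Nr4a1 a span of 7947 bp, whereas RefSeq gives it 20894 bp in GRCm38.p6. The distance is from the 5′ end in the table only. Fos had its nearest peak 18.1 kb upstream (score 59.5) and Junb 11.8 kb upstream (score 89.7). The Junb peak lay 71 bp from the 5′ end of Hook2, its neighbour. Fosb lay just outside the limit, with peaks 10.1 and 12.1 kb upstream (scores 66.9 and 216), and the nearest peak to Atf3 lay 25.3 kb upstream (score 55.7). With only peaks that score at least 100, Jund and Egr1 remained, 2 of 10.

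**Figure D5:**
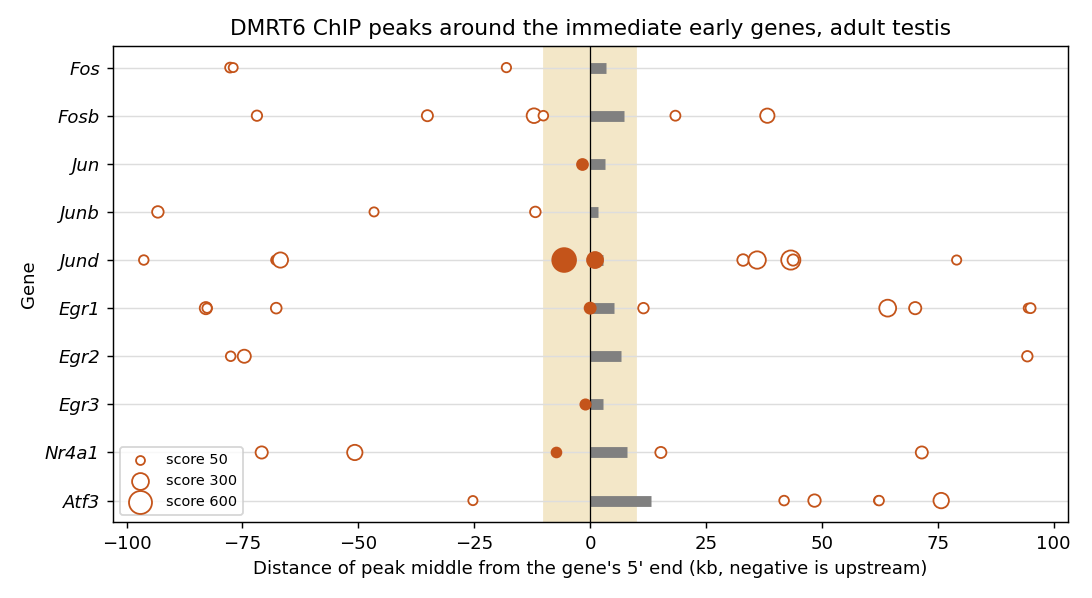
Middles of DMRT6 ChIP peaks in adult testis by distance from the 5′ end of each gene (horizontal axis, kb, negative upstream). Circle area grows with the score, filled circles lie within 10 kb (shaded), and grey bars show the gene's span. Jund, Egr1, Egr3, Jun and Nr4a1 have filled circles, and the largest, with a score of 642, is upstream of Jund.

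Peaks near related genes were counted in the same way. A peak lay within 10 kb for 20 of 49 other immediate early genes, 15 of 26 other bZIP factors, 3 of 7 EGR and NR4A relatives, 15 of 37 upstream kinases and factors, 10 of 19 heat shock and stress genes and 6 of 12 hypoxia genes, where 27.9% of all genes had one. The list of AP-1 or NR4A1 targets had 2 of 17.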

How the data were processed

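The 10 genes, the gene lists and the tests were chosen with earlier results of these data known. The authors deposited log2 CPM for 22744 Ensembl genes, and edgeR, Picard, Bowtie2, STAR 2.3.0e and the build mm9 are named without roles in the submitters' processing notes. The sources used here do not give the read counter, annotation release or strand use. Above a common lowest value, 2 to the power of each deposited value was a whole multiple of 1 step per library plus a small prior, so reads were recovered (100% whole at a tolerance of 1e-06). The deposited peak score has no stated scale, and the file name gives MACS 1.4 and removal of duplicates.

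Libraries were grouped by their titles. limma-trend (limma 3.58.1, R 4.3.3) was fitted with genotype alone to the 16634 genes with a mean of at least 0, with Benjamini-Hochberg adjustment. Alternatives were other filters, log2(CPM + 1), quantile and median scaling, voom, array weights, a replicate block and leaving out each library. Named besides the 10 genes were Dmrtb1, the 4 genes of smallest p in each related list and the 5 most alike. Other list genes named (Star, Cyp17a1, Cyp11a1, Cfd, Sohlh1, Sohlh2 and Kit) were chosen after their values were seen. The rest of the spermatogonial list was named beside them for comparison. An exact permutation test of 3 against 3 libraries cannot give p below 0.1 and was not used. RefSeq promoter windows were matched by symbol, and sequences by mm9 coordinates were not read.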

Additional observations from a re-analysis of the deposited data

How the results depend on the processing

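The number of tested genes called was 1, and was 0 with a mean log2 CPM of at least 2, 3 with median centring, with quantile normalization and with no filter, 2 with the replicate block, 136 with array weights, and 0 to 5 with 1 library left out (0 without null replicate 1, 2 without wild-type replicate 2, 5 without null replicate 3). Array weights did not converge and gave null replicate 1 a weight of 19.3 against 0.153 to 1.46 for the others. That fit called 2 of the 8 genes, Junb (1.34, adjusted p = 0.00992) and Nr4a1 (0.86, adjusted p = 0.0429), with a median of 0.0825. In it Jun was at -0.00419 and Atf3 at 0.00434, both with the sign turned. In all other alternatives 0 of the immediate early genes were called. Their median difference was 0.73 with no filter, which adds Fosb (1.82) and Egr3 (1.93). Both of these differences are set by the value of -6.74 given to 0 reads in wild-type replicate 1, and Fosb had more reads in wild type (94) than in null (62), so this median is not a measure of change. The median was 0.12 to 0.58 with 1 library left out. With 1 library left out Jun ranged from -0.0956 to 0.555 and Jund from -0.0688 to 0.415, both negative without null replicate 3. For single genes, 105 of 111 combinations of a gene and an alternative kept the sign and the side of the threshold, 2 passed it and 4 turned sign. Genes without overlap numbered 3 or 4 when 1 library was left out. With fewer libraries fewer values can overlap, and no share over all tested genes is given for these fits. These counts therefore cannot be set against the 5.06% and 6.02% found with all 6 libraries. The count of 5 genes with a peak within 10 kb was 2 at 1 kb, 9 at 50 kb and 2 at a score of at least 100. The genotypes share replicate numbers, but deviations from the group means of same-numbered libraries correlated at -0.09, -0.22 and -0.04, so the numbers were not taken to pair libraries, and the replicate block called 0 of the immediate early genes. Egr3, with 9 reads in wild type and 20 in null, is limited by depth.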

Other observations

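Even read counts were more common than odd ones. Among genes with 1 to 9 reads, 61.3% to 64.0% of counts were even, depending on the library, and among genes with 10 to 99 reads 58.2% to 59.7%. Of the 58 counts above 0 for the 10 immediate early genes, 41 were even, including all 6 for Junb and all 6 for Egr2. Whether both mates of a fragment were counted is not given in the sources used here.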
